A study of Mus musculus with 6 samples.

Results

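The calcineurin and NFAT signalling genes examined here are 10 genes chosen by name out of 41025 in each expression table: the calcineurin subunits Ppp3ca, Ppp3cb and Ppp3r1, the calcineurin inhibitors Rcan1 and Rcan2, the transcription factors Nfatc1, Nfatc2, Nfatc3 and Nfatc4, and the kinase Camk2a. All 10 were found by gene ID and symbol, and all 10 passed the filter of a mean of at least 1 FPKM, as did 11383 genes in all. FPKM is a fragment count scaled by gene length and by library total. RNA came from the tibialis anterior, a mostly fast-contracting hindlimb muscle, of 8-week-old mice of the C57BL/6 strain. The labels assign 3 of the 6 libraries to wild type (WT) and 3 to a knockout (KO) of Mettl21e, a gene for a protein methyltransferase, with libraries numbered 1 to 3 under each label. Values are given in the order of these numbers throughout. The sources used here give neither how the knockout allele was made nor whether each library stands for a separate mouse. P-values therefore describe the spread between the libraries, which may be technical. The question put to these genes is whether their transcript levels differ between the labels.

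Calcineurin is a phosphatase that acts when calcium rises and calmodulin binds it. Its catalytic subunit is encoded by Ppp3ca, Ppp3cb or Ppp3cc and its calcium-binding regulatory subunit by Ppp3r1. It removes phosphate from the NFATc proteins, which then enter the nucleus, and kinases such as those encoded by Gsk3b and Dyrk1a put the phosphate back. In skeletal muscle the pathway is known for its part in the slow and oxidative fibre programme and in myofibre growth and repair. The RCAN proteins bind calcineurin and inhibit it, and Rcan1 transcripts that begin at an internal start site are a known transcriptional target of NFAT, which makes Rcan1 a feedback inhibitor. Camk2a encodes a subunit of the calmodulin-dependent kinase CaMKII, which reads the same calcium signal, and in muscle the gene also gives a kinase-anchoring protein of the sarcoplasmic reticulum.

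Between 8476591 and 10856669 fragments stood behind a library. The targeted transcript did not tell the labels apart: Mettl21e was at 2.46, 0.309 and 1.23 FPKM in the WT-labelled libraries and at 1.64, 1.45 and 1.88 FPKM in the KO-labelled ones, so every direction below is one between labels. Markers of fast fibres, such as Tnnt3, Acta1 and Mylpf, were abundant in every library, and the sum over the 10 fast fibre markers was 88879 to 95981 FPKM. Across the transcriptome, limma's test called 0 of 11383 genes (0%) at a Benjamini-Hochberg adjusted p under 0.05, and 523 genes had an unadjusted p under 0.05, of which 146 were higher and 377 lower under the KO label (297 and 248 after each library's median was subtracted, 276 and 268 after quantile normalization).

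Because the Rcan1 transcripts that NFAT is known to induce begin inside the gene, the bases before both RefSeq start sites of Rcan1 are shown, with an internal start site of its relative Rcan2 for comparison. Each run is the 250 bases before a start site, 5′ to 3′ on the gene's strand, from RefSeq on GRCm38.p6, and none of the 3 runs overlaps an exon annotated by GENCODE. Capitals mark GGAAA or its reverse complement TTTCC, the core of an NFAT site, and TGACTCA or its reverse complement TGAGTCA, the site of AP-1, a frequent partner of NFAT on DNA. Both strands were searched, the motifs share no base in these runs, and they were chosen with the sequence in view.
Rcan1, first start site (chr16:92466170-92466419, minus strand): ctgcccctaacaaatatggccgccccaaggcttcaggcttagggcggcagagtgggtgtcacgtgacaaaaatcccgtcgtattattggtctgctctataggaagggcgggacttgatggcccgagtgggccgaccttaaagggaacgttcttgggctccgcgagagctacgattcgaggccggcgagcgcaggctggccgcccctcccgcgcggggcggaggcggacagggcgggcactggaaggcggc
Rcan1, internal start site (chr16:92400079-92400328, minus strand): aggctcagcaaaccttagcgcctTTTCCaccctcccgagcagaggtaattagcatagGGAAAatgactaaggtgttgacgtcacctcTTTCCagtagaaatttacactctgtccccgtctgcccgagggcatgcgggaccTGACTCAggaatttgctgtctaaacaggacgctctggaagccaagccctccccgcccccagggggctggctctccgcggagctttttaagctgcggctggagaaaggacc
Rcan2, internal start site (chr17:43952749-43952998, plus strand): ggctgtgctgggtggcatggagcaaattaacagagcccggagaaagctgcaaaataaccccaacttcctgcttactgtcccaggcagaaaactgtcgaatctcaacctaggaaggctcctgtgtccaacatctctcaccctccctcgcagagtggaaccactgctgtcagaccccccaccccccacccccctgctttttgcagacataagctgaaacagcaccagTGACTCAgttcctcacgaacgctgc
The window before the internal Rcan1 start site held 3 NFAT cores, which began 227, 193 and 163 bases before the start, and 1 AP-1 motif, which began 110 bases before it. Neither motif was in the window before the first Rcan1 start site, and the Rcan2 window shown held 1 AP-1 motif, 25 bases before the start. The other 2 Rcan2 windows overlap annotated exons, by 1 and 73 bases, and are not shown. That with 1 exonic base held 2 NFAT cores, 238 and 150 bases before its start, and the other held neither motif. Of all 32851 windows of this length, 55.6% held at least 1 NFAT core, 6.39% held 3 or more, 4.46% held an AP-1 motif and 2.51% held both motifs. A match is a description of these letters and not a bound site. Windows of 7 of the 10 genes were searched, and Ppp3ca, Nfatc1 and Camk2a were not among these genes. The search covered 12 windows in all, and 7 of the 12 held an NFAT core. Of these, 1 window each of Ppp3cb, Nfatc2 and Nfatc4 also held 3 cores, as did the internal Rcan1 window. The expression tables hold 1 value per gene, so the use of either Rcan1 start site was not analysed here.

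Rcan1 was lower in every KO-labelled library than in any WT-labelled library. The gene (ENSMUSG00000022951, chromosome 16, 92391953 to 92470867, minus strand, mm10) measured 25.6, 24.2 and 33.0 FPKM in the WT-labelled libraries and 21.6, 19.0 and 20.9 FPKM in the KO-labelled ones. WT-labelled library 3 was the highest of the 6, and the libraries of the 2 labels did not overlap. The means were 27.6 ± 4.70 and 20.5 ± 1.35 FPKM (SD, n = 3 per label), a ratio of 0.742. The difference in log2 was -0.40 (SE 0.13, 95% interval -0.69 to -0.12), which did not pass limma's test over all genes (unadjusted p = 0.0117, adjusted p = 0.988). A two-sided exact permutation test on FPKM gave p = 0.1, the smallest that 3 against 3 libraries allow. Behind these values stood 400 to 658 fragments per library. Without WT-labelled library 3 the difference in log2 was -0.27. Gm46555 overlaps Rcan1 on the other strand, and the sources used here do not give the strand setting, so their fragments cannot be told apart where they overlap.

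Rcan2, the second inhibitor gene, showed no such separation. It lies on chromosome 17 (ENSMUSG00000039601, 43801351 to 44039516, plus strand) and was at 24.4, 23.0 and 21.5 FPKM in the WT-labelled libraries and at 25.4, 19.98 and 21.1 FPKM in the KO-labelled ones. The highest and the lowest of the 6 libraries both carried the knockout label. The difference in log2 was -0.05 (SE 0.11, limma adjusted p = 0.988), with a 95% interval from -0.31 to 0.20. It turned to 0.01 without KO-labelled library 2.

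Set against Rcan2 at the gene lengths behind the FPKM, Rcan1 was the higher gene in all 3 WT-labelled libraries and the lower gene in all 3 KO-labelled libraries. The ratio of Rcan1 to Rcan2 was 1.05, 1.06 and 1.53 in the WT-labelled libraries and 0.849, 0.950 and 0.991 in the KO-labelled ones. This ratio was chosen after the values were seen. The 2 groups did not overlap, and the exact two-sided permutation test gave p = 0.1, the smallest possible here. Without WT-labelled library 3 the log2 of the ratio of the label means was -0.18 in place of -0.38. FPKM divides by a gene length, so the point where the 2 genes cross depends on the lengths used, while the direction between labels does not. With all annotated exon bases of a gene as its length (the exon union), Rcan1 was the higher gene in every library. The means were then 17.6 FPKM for Rcan1 and 13.0 FPKM for Rcan2.

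The inhibitors were then set against the catalytic subunits within each library. Rcan1 relative to the sum of Ppp3ca and Ppp3cb was 0.0823, 0.0803 and 0.112 in the WT-labelled libraries and 0.0651, 0.0612 and 0.0644 in the KO-labelled ones. The KO-labelled libraries lay below all WT-labelled ones and close to each other, with a mean of 0.0636 ± 0.00210 against 0.0915 ± 0.0177 (SD, n = 3 per label). The exact two-sided permutation p was 0.1 and, adjusted over the 2 inhibitor ratios, 0.2. Rcan2 relative to the same sum was 0.0784, 0.0761 and 0.0730 in the WT-labelled libraries and 0.0767, 0.0644 and 0.0650 in the KO-labelled ones. Here KO-labelled library 1 lay inside the range of the WT-labelled libraries (exact permutation p = 0.3). With Ppp3r1 as the denominator the label means of Rcan2 were 0.402 and 0.401 and those of Rcan1 0.486 and 0.370. The labels did not overlap for Rcan1 and did for Rcan2 (exact permutation p = 0.1 and 1). Rcan1 by itself already separated the labels, so its ratios are not separate evidence.

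**Figure D1:**
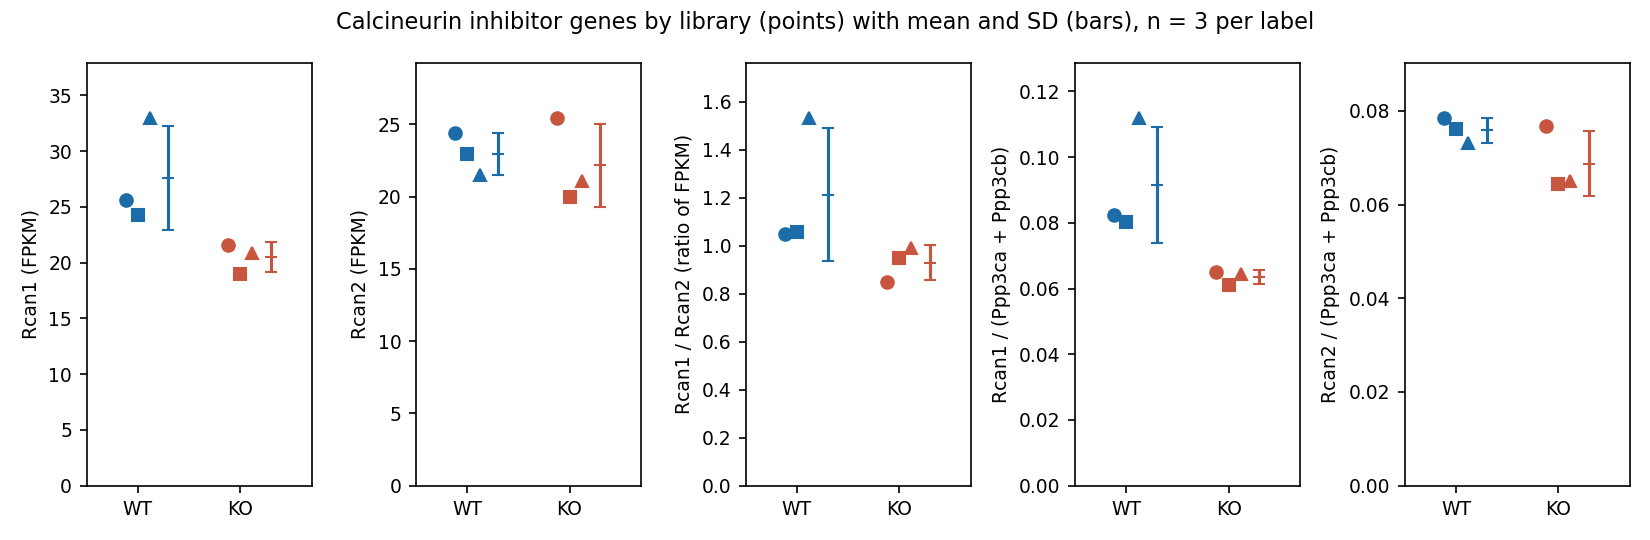
Levels of Rcan1 and Rcan2 in FPKM, the ratio of Rcan1 to Rcan2, and the ratio of each to the summed FPKM of Ppp3ca and Ppp3cb, from left to right, all axes starting at 0. Points are libraries (circle, square and triangle for libraries 1, 2 and 3), and bars are the mean and SD of the 3 libraries of a label. For Rcan1, at 19.0 to 21.6 FPKM in KO and 24.2 to 33.0 FPKM in WT, the labels do not overlap, and for Rcan2 they do.

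The catalytic subunit gene Ppp3cb was higher in every KO-labelled library than in any WT-labelled one, by a small margin. Ppp3cb (ENSMUSG00000021816, chromosome 14, 20499364 to 20546573, minus strand) measured 138, 139 and 131 FPKM in the WT-labelled libraries and 151, 141 and 155 FPKM in the KO-labelled ones. The ratio of the means, 149 ± 7.30 over 136 ± 4.24 FPKM (SD, n = 3 per label), was 1.10, and the log2 difference of 0.14 (SE 0.07, limma adjusted p = 0.988) had a 95% interval from -0.03 to 0.30. The lowest KO-labelled library and the highest WT-labelled one, 141 and 139 FPKM, were closer than the counting error of either. The antisense gene 1810062O18Rik overlaps Ppp3cb.

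Ppp3ca, the other main catalytic subunit gene (ENSMUSG00000028161, chromosome 3, 136670124 to 136937727, plus strand), stood at 173, 163 and 164 FPKM in the WT-labelled libraries and at 180, 169 and 169 FPKM in the KO-labelled ones. The labels overlapped, and the difference in log2 was 0.05 (SE 0.07, limma adjusted p = 0.988). Ppp3r1, the regulatory subunit gene (ENSMUSG00000033953, chromosome 11, 17159263 to 17200375, plus strand), stood at 58.9, 58.3 and 54.2 FPKM in the WT-labelled libraries and at 54.7, 55.2 and 56.0 FPKM in the KO-labelled ones. It varied least of the 10 genes, with its highest library 1.09 times its lowest, and its 95% interval of the log2 difference ran from -0.22 to 0.13. Wdr92 overlaps Ppp3r1 on the same strand. Of the catalytic FPKM in a library, Ppp3ca made up 49.99% to 53.7%, Ppp3cb 42.7% to 45.9% and Ppp3cc 3.25% to 4.10%. These shares overlapped between labels for all 3 genes. Relative to the sum of Ppp3ca and Ppp3cb, Ppp3r1 was at 0.189, 0.193 and 0.184 in the WT-labelled libraries and at 0.165, 0.178 and 0.173 in the KO-labelled ones. These ratios did not overlap, a comparison made after the values were seen (exact two-sided permutation p = 0.1).

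Nfatc1, the most abundant of the 4 NFATc genes (ENSMUSG00000033016, chromosome 18, 80606205 to 80713071, minus strand), was lower in every KO-labelled library. It was at 10.2, 11.1 and 10.9 FPKM in the WT-labelled libraries and at 10.05, 9.27 and 9.08 FPKM in the KO-labelled ones. The closest libraries of the 2 labels, library 1 of each, had 508 and 454 fragments behind them and lay closer together than their counting error. The log2 difference of -0.16 (SE 0.10, limma adjusted p = 0.988) had a 95% interval from -0.38 to 0.06. An antisense gene, AC123818.1, overlaps Nfatc1 on the other strand.

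Nfatc2 (ENSMUSG00000027544, chromosome 2, 168476410 to 168601657, minus strand), a factor known from T cells and from myoblast fusion, varied most of the 10 genes. It was at 2.81, 6.58 and 5.58 FPKM in the WT-labelled libraries and at 3.44, 4.0002 and 3.66 FPKM in the KO-labelled ones. WT-labelled libraries 2 and 3 stood above the other 4, and WT-labelled library 1 was the lowest of the 6. The difference in log2 was -0.29 (SE 0.24, limma adjusted p = 0.988). Without WT-labelled library 1 it was -0.59 (adjusted p = 0.174) and without WT-labelled library 2 -0.09. Nfatc4 (ENSMUSG00000023411, chromosome 14, 55823144 to 55833943, plus strand), the least abundant member, was at 1.51, 2.02 and 2.67 FPKM in the WT-labelled libraries and at 1.58, 1.60 and 1.65 FPKM in the KO-labelled ones. Again WT-labelled libraries 2 and 3 were the highest and library 1 the lowest. Its lowest count was 51 fragments, with an exact 95% Poisson interval of 38.0 to 67.1 fragments that covers counting error only, and its log2 difference was -0.21 (SE 0.17, limma adjusted p = 0.988), -0.08 without WT-labelled library 3 and -0.35 without WT-labelled library 1.

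Summed markers of fibroblasts, leukocytes, endothelium, and smooth muscle and pericytes were highest in the same 2 libraries as Nfatc2 and Nfatc4. The 7 fibroblast markers, led by Dcn, Col3a1 and Col1a1, summed to 217, 453 and 437 FPKM in the WT-labelled libraries and to 228, 245 and 311 FPKM in the KO-labelled ones. The 8 macrophage and leukocyte markers, led by Lyz2, summed to 14.9, 33.3 and 42.2 FPKM and to 15.9, 13.5 and 19.9 FPKM in the same order. The 9 markers of T and B lymphocytes, all below the filter, summed to 1.84, 1.30 and 1.73 FPKM in the WT-labelled libraries and to 0.605, 0.231 and 1.25 FPKM in the KO-labelled ones, low sums that did not overlap between labels. The sum over the endothelial markers was 205 to 291 FPKM, lowest in WT-labelled library 1 and highest in WT-labelled libraries 2 and 3 (291 and 275 FPKM). The 7 smooth muscle and pericyte markers summed to 231, 384 and 404 FPKM in the WT-labelled libraries and to 314, 341 and 300 FPKM in the KO-labelled ones. For Schwann cell and satellite cell markers, WT-labelled library 2 was not among the 2 highest. WT-labelled library 3, the highest in Rcan1, was also the highest in the markers of leukocytes, smooth muscle and pericytes, Schwann cells and satellite cells. The part of these cells in the values of Rcan1, Nfatc2 and Nfatc4 was not tested, and in whole muscle fewer cells of a type and less RNA per cell cannot be told apart.

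Nfatc3 (ENSMUSG00000031902, chromosome 8, 106058840 to 106130537, plus strand) measured 5.51, 5.88 and 6.32 FPKM in the WT-labelled libraries and 5.14, 5.93 and 6.51 FPKM in the KO-labelled ones. The labels overlapped over most of their range, and the difference in log2 was -0.01 (SE 0.12, limma adjusted p = 0.999), with a 95% interval from -0.28 to 0.26. The difference turned upward when each library's median was subtracted (0.03). Esrp2 overlaps Nfatc3 on the other strand. Of the summed FPKM of the 4 NFATc genes, Nfatc1 made up 42.7% to 50.8%, Nfatc3 23.0% to 31.2%, Nfatc2 14.1% to 25.7% and Nfatc4 7.54% to 10.5% per library. The sum itself was 19.98, 25.6 and 25.4 FPKM in the WT-labelled libraries and 20.2, 20.8 and 20.9 FPKM in the KO-labelled ones. WT-labelled library 1 lay just below the KO-labelled libraries, and WT-labelled libraries 2 and 3 stood above them.

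**Figure D2:**
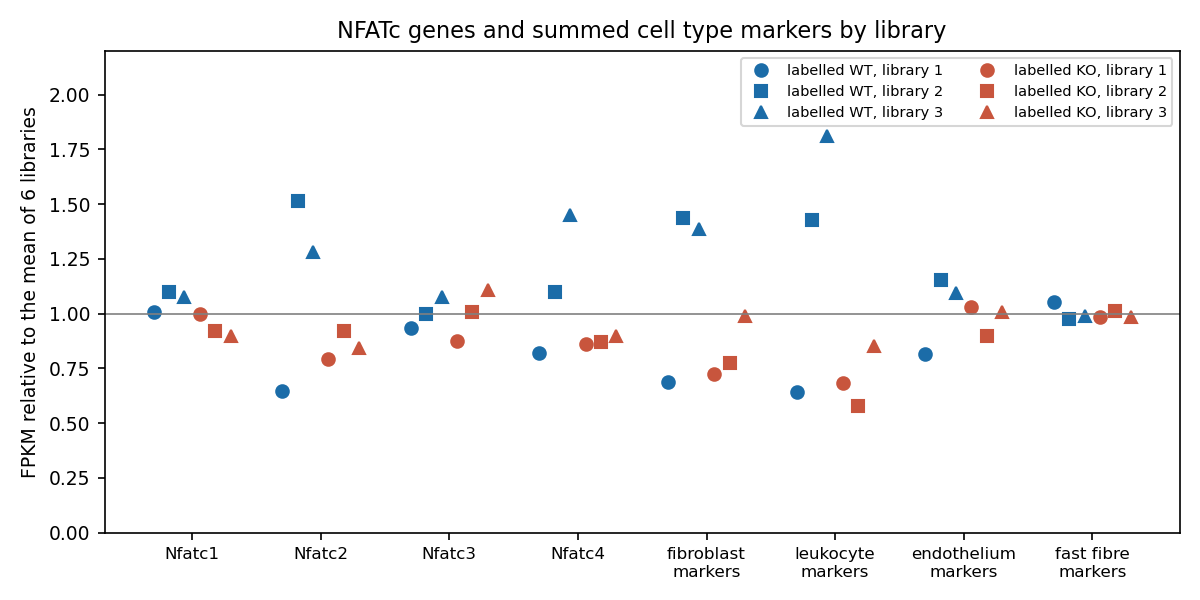
FPKM of the 4 NFATc genes and summed FPKM of 4 marker lists, each divided by its mean over the 6 libraries. Blue points are libraries labelled WT and red points libraries labelled KO (circle, square and triangle for libraries 1, 2 and 3). Libraries 2 and 3 labelled WT stand highest for Nfatc2 (6.58 and 5.58 FPKM), Nfatc4 (2.02 and 2.67 FPKM) and the fibroblast markers (453 and 437 FPKM).

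Camk2a (ENSMUSG00000024617, chromosome 18, 60925618 to 60988152, plus strand) was the most abundant of the 10 genes and did not differ between labels beyond the spread of the libraries. It was at 177, 192 and 173 FPKM in the WT-labelled libraries and at 183, 174 and 183 FPKM in the KO-labelled ones. The libraries of the 2 labels were interleaved. The difference in log2 was -0.01 (SE 0.07, limma adjusted p = 0.9997), with a 95% interval from -0.17 to 0.16, and it turned to 0.04 when each library's median was subtracted. Camk2a made up 53.8% to 58.9% of the summed FPKM of the 4 CaMKII genes Camk2a, Camk2b, Camk2d and Camk2g. Of the 8 neuronal markers, Snap25 was listed at 0 in all 6 libraries, Syp and Map2 passed the filter with means of 1.66 and 1.497 FPKM, and the sums were 2.05 to 4.09 FPKM. The values do not separate the kinase from the anchoring protein of the same gene, since each table holds 1 value per gene.

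In order of mean level over the 6 libraries, the genes ran from Camk2a (180 FPKM) through Ppp3ca (170 FPKM), Ppp3cb (143 FPKM), Ppp3r1 (56.2 FPKM), Rcan1 (24.0 FPKM), Rcan2 (22.6 FPKM), Nfatc1 (10.1 FPKM), Nfatc3 (5.88 FPKM) and Nfatc2 (4.35 FPKM) to Nfatc4 (1.84 FPKM). The ranges of neighbours overlapped for Camk2a and Ppp3ca, for Rcan1 and Rcan2, and for Nfatc3 and Nfatc2, and for no other neighbours. Within a library Camk2a was above Ppp3ca in 6 of 6, Nfatc3 above Nfatc2 in 5 of 6 and Rcan1 above Rcan2 in 3 of 6. The enzyme genes thus stood well above the genes of their NFATc substrates on this scale per length. The lengths behind the FPKM were shorter than the exon union of the annotation for all 10 genes. With the exon union in its place, a choice made after the values were seen, the calcineurin subunit genes lay together, with Ppp3r1 at 31.8, Ppp3ca at 30.2 and Ppp3cb at 29.4 FPKM, so the order among these 3 depends on the length. Nfatc2 and Nfatc3 also changed places, at 1.57 and 1.51 FPKM. Rcan1, at 17.6 FPKM, then stood above Rcan2, at 13.0 FPKM, in every library. Shares of summed FPKM given above depend on the lengths too.

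**Figure D3:**
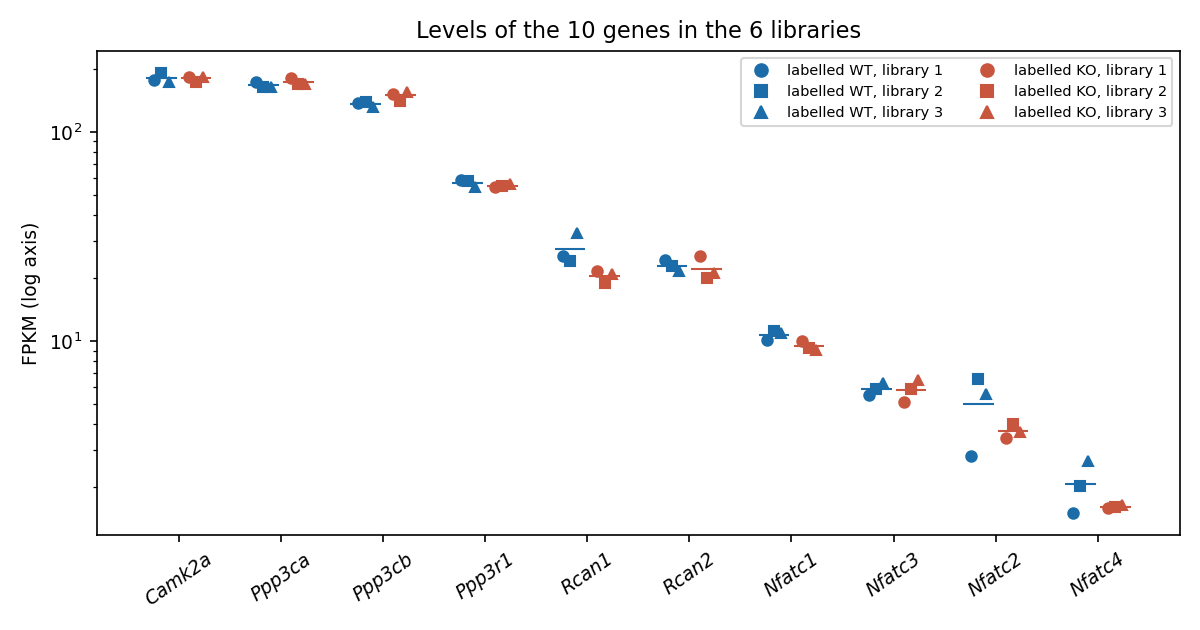
FPKM of the 10 genes on a log axis, ordered by mean level. Blue points are libraries labelled WT, red points libraries labelled KO (circle, square and triangle for libraries 1, 2 and 3), and lines are label means. The labels separate for Ppp3cb, Rcan1 and Nfatc1, and Nfatc2 has the widest spread, from 2.81 to 6.58 FPKM.

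Over the 10 genes, 0 passed limma's test (background 0%), with adjusted p from 0.988 to 0.9997, and 1 had an unadjusted p under 0.05, where 4.59% of all tested genes did (3.31% lower and 1.28% higher). Log2 differences were below 0 for 8 of the 10 genes, against 56.7% of all tested genes, and their median was -0.05, against -0.02 over all tested genes. The libraries of the 2 labels did not overlap for 3 of the 10 genes, Rcan1, Nfatc1 and Ppp3cb, where 9.48% of all tested genes did not overlap (5.64% lower and 3.84% higher under the KO label). The same 3 did not overlap after each library's median was subtracted (9.9% of all tested genes). The 95% intervals excluded a 2-fold change on the log2(FPKM + 1) scale for all 10 genes, the widest being that of Nfatc2, from -0.83 to 0.25. This scale understates the change of low genes, so a 2-fold change in FPKM itself is not excluded for Nfatc2 and Nfatc4.

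**Figure D4:**
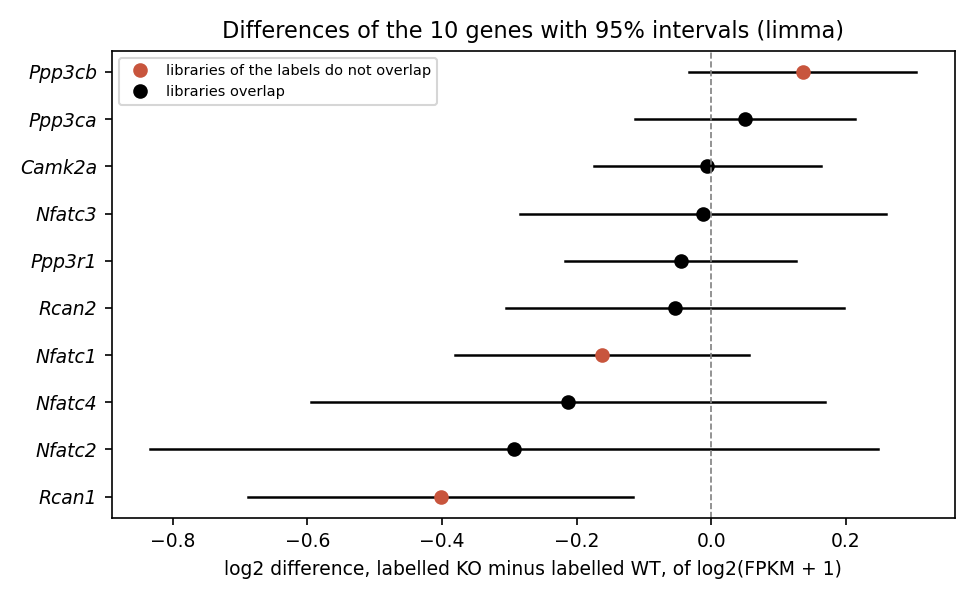
Log2 difference, labelled KO minus labelled WT, of log2(FPKM + 1) for each of the 10 genes (point) with its 95% interval from limma (line). Red points mark genes whose libraries do not overlap between labels. The interval of Rcan1, from -0.69 to -0.12, is the 1 interval of 10 that does not cross 0, before adjustment over all genes.

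Across the 6 libraries, the levels of Rcan1 and Rcan2 were related to those of the other genes as log2(FPKM + 1), with 17 pairs and exact permutation p-values over all pairings. No pair passed after Benjamini-Hochberg adjustment, the smallest adjusted p for Pearson's r being 0.372. Rcan1 and Rcan2 themselves had no correlation that passed over the 6 libraries (r = 0.16, exact permutation p = 0.782, rho = 0.49, p = 0.356), and r was 0.35 without WT-labelled library 3 and KO-labelled library 2, the 2 farthest from the Rcan1 median, and -0.04 over deviations from the label means. The 3 libraries of a label are too few for a correlation of their own.

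For Rcan1 the largest r was with Nfatc4 (r = 0.80, exact permutation p = 0.0639, rho = 0.26, p = 0.658, adjusted p = 0.372 for r and 0.910 for rho). It rested on WT-labelled library 3, since r was 0.21 without it and 0.11 without the 2 farthest libraries, and it was 0.72 over deviations from the label means. With Nfatc1 the r of Rcan1 was 0.75 (exact permutation p = 0.0833, rho = 0.77, p = 0.103, adjusted p = 0.372 and 0.582). It was 0.68 without the 2 farthest libraries and 0.23 over deviations from the label means. With Ppp3cb the r was -0.74 (exact permutation p = 0.0875, rho = -0.83, p = 0.0583, adjusted p = 0.372 and 0.496), -0.98 without the 2 farthest libraries and -0.22 over deviations from the label means. Nfatc1, Ppp3cb and Rcan1 are the 3 genes whose labels did not overlap. With the other catalytic subunit Ppp3ca the r of Rcan1 was -0.42, with Nfatc2 0.40, with Camk2a -0.21, with Nfatc3 0.20 and with Ppp3r1 -0.02, with exact permutation p from 0.403 to 0.978.

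For Rcan2 the largest r was with Nfatc3 (r = -0.81, exact permutation p = 0.0528, rho = -0.83, p = 0.0583, adjusted p = 0.372 and 0.496). It kept its sign when any 1 library was left out (r from -0.998 to -0.643), over deviations from the label means (-0.85), and without KO-labelled libraries 1 and 2, the 2 farthest from the Rcan2 median (-0.999). Libraries with more Rcan2 transcript thus tended to have less Nfatc3 transcript in this set, over a range of 5.14 to 6.51 FPKM and without passing the adjusted test. KO-labelled library 2 departed from this: it was lowest in Rcan2 (19.98 FPKM) but at 5.93 FPKM for Nfatc3, below KO-labelled library 3 (6.51 FPKM). Counting error alone is about 8.16% for Nfatc3 at its lowest count of 150 fragments, against a highest library 1.27 times the lowest. With Ppp3ca the r of Rcan2 was 0.62 (exact permutation p = 0.181, rho = 0.49, p = 0.356) and 0.46 without the 2 farthest libraries, and with the remaining 6 genes r lay between -0.30 and 0.41.

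Of the 11382 other tested genes, the 5 whose pattern over the 6 libraries was most like that of Rcan1 were Rhpn2 (r = 0.98), Megf9 (0.98), Gm6548 (0.98), Mesd (0.97) and Klhl18 (0.97). Those most like Rcan2 were Ints9, Fmo1, Trip10, Prdm15 and Zfp622 (r = 0.98 each). With 6 libraries such values are common among so many genes: 91 genes had an r above 0.9 with Rcan1 and 129 with Rcan2.

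Around the 10 genes, 5 lists of pathway genes were described by counts. Of the 15 tested of 18 other calcineurin subunits, regulators and anchors, 0 passed limma's test in either direction, 9 were lower and 6 higher in the KO-labelled libraries, and the median log2 difference was -0.05. Its most abundant members were Myoz1, which encodes the fast-fibre calsarcin that holds calcineurin at the Z-disc, at 1186 ± 40.3 against 1315 ± 112 FPKM (wild type against knockout labels, SD, n = 3 each), and the Z-disc genes Actn2 at 614 ± 159 against 381 ± 159 FPKM and Ldb3 at 533 ± 79.7 against 425 ± 74.4 FPKM. Myoz2, the calsarcin of slow fibres, picked once its values had been seen, was at 97.8, 139 and 143 FPKM in the WT-labelled libraries and at 88.1, 82.9 and 35.3 FPKM in the KO-labelled ones (log2 difference -0.96, limma adjusted p = 0.988). The labels overlapped for Myoz1 and for Myoz3, another calsarcin gene (log2 difference 0.15 and -0.05), and did not for Myoz2. The third catalytic subunit gene Ppp3cc, at 11.01 ± 0.808 against 12.7 ± 0.9746 FPKM, and Fkbp1a and Cabin1, which encode a partner of the calcineurin-blocking drug FK506 and a calcineurin-binding inhibitor, were the other 3 members whose labels did not overlap, named after their values were seen. That makes 4 of 15, where 9.48% of all tested genes did not overlap. Fkbp1a was at 122 ± 0.957 against 114 ± 3.21 FPKM and Cabin1 at 2.40 ± 0.208 against 1.95 ± 0.161 FPKM.

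Calmodulin and its kinases were without a call. Of 10 tested of 15 members, 0 passed limma's test, 5 were higher and 5 lower, and the median log2 difference was -0.01. The labels did not overlap for 1 of these 10, where 9.48% of all tested genes did not overlap. The calmodulin genes Calm3 and Calm2 were at 316 ± 9.82 against 312 ± 3.57 and 182 ± 11.3 against 200 ± 33.9 FPKM (SD, n = 3 each). Among 25 NFAT kinases, nuclear partners and other NFAT genes, all tested, 0 passed, 14 were higher and 11 lower, with a median of 0.02. Mef2c, a muscle transcription factor that calcineurin and CaMKII signals are known to act on, was at 282, 291 and 267 FPKM in the WT-labelled libraries and at 308, 315 and 315 FPKM in the KO-labelled ones. Its labels did not overlap, and its log2 difference of 0.16 had an adjusted p of 0.988 in limma. Of these 25 genes, 2 did not overlap between labels, where 9.48% of all tested genes did not. Mef2d was at 112 ± 7.12 against 114 ± 10.6 FPKM and the casein kinase gene Csnk1a1 at 73.9 ± 4.39 against 77.8 ± 4.53 FPKM.

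Genes of calcium entry and release were also without a call: of 13 tested of 15 members, 7 were higher and 6 lower, with a median of 0.05. The calcium pump gene Atp2a1 was at 8237 ± 598 against 8820 ± 568 FPKM, the calcium buffer gene Casq1 at 1402 ± 159 against 1317 ± 83.0 FPKM and the release channel gene Ryr1 at 223 ± 47.5 against 243 ± 15.03 FPKM (SD, n = 3 each). The slow-type pump gene Atp2a2, picked once its values had been seen, was at 15.7, 21.8 and 13.4 FPKM in the WT-labelled libraries and at 11.2, 10.4 and 11.6 FPKM in the KO-labelled ones, without overlap (log2 difference -0.55, limma adjusted p = 0.988). It was the 1 of 13 tested members whose labels did not overlap, where 9.48% of all tested genes did not. WT-labelled library 2 stood highest.

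Of the 12 slow and oxidative fibre genes that the pathway is known to act on, 11 were lower, against 56.7% of all tested genes. Mybpc1 was at 0.00, the median log2 difference was -0.71 against -0.02 over all tested genes, and 0 passed limma's test. The labels did not overlap for 5 of the 12, all lower under the KO label, where 9.48% of all tested genes did not overlap. Earlier results on these libraries had already shown this direction, so it is not independent evidence. The most abundant members of this list were Mb (myoglobin) at 6546 ± 158 against 5701 ± 410 FPKM, Mybpc1 at 1734 ± 194 against 1744 ± 284 FPKM and Myh2 at 1285 ± 356 against 752 ± 395 FPKM (SD, n = 3 each). Tpm3, the slow tropomyosin gene, picked once its values had been seen, was at 58.2, 63.3 and 43.8 FPKM in the WT-labelled libraries and at 36.5, 42.2 and 37.1 FPKM in the KO-labelled ones. Without any 1 library, 10 to 12 of the 12 members were lower. Without WT-labelled library 3, Myh7 and Tnnc1, the slow myosin and troponin C genes, passed limma's test (log2 difference -2.78 and -2.15, adjusted p = 0.0239 each), where 3 of all 11383 genes (0.0264%) did. With all libraries these differences were -1.92 and -1.27, so leaving this library out widened both. Leaving out any other library gave 0 calls in this list, so the calls depend on which library is left out.

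**Figure D5:**
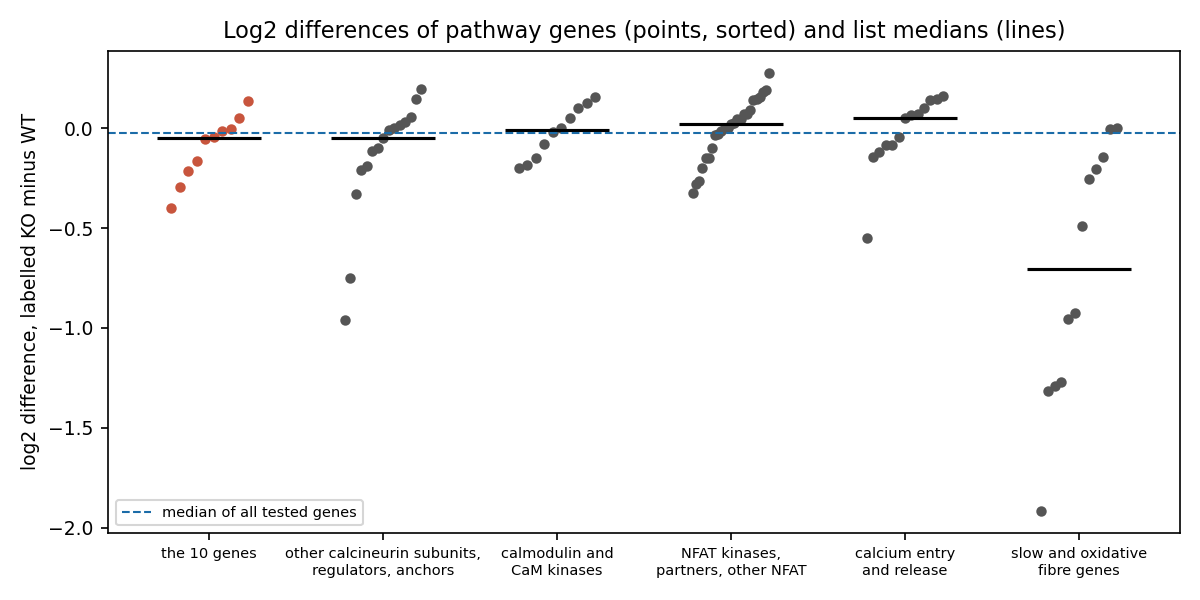
Log2 differences (labelled KO minus labelled WT, of log2(FPKM + 1)) of the 10 genes in red and of the tested members of 5 pathway lists in grey, sorted within each list. Black lines are list medians and the dashed line is the median of all tested genes, -0.02. The medians lie between -0.05 and 0.05 except for the slow and oxidative fibre genes, at -0.71.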

How the data were processed

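The 6 deposited tables give FPKM per gene, 1 table per library. Per the submitters' processing notes, the authors used TopHat2 2.1.1, Cufflinks 2.2.1 and the build mm10. The sources used here do not give their roles, the annotation, the strand setting or filters. Sample titles gave each library's label and number, and symbols came from a GENCODE table (40452 of 41025 IDs). The main test was limma (3.58.1, R 4.3.3) with trend, applied to log2(FPKM + 1) of 11383 genes whose mean reached 1 FPKM, adjusted by Benjamini-Hochberg at 0.05. This scale understates the change of low genes. Each library total was set first, as the commonest value at which a gene's FPKM and exon union came to 1 fragment. Genes above 0 in few libraries can fit some length by accident, so a fit is no check for them. With these totals, all 23559 genes above 0 (100%) fitted at least 1 whole length between 20 and 110000 bases. At that length the FPKM made whole fragments, within 0.002 of a fragment, in every library where the gene was above 0. This gave the counts. The exon union was taken where it fitted and otherwise the shortest such length, so a count may be too low where all counts of a gene share a factor. Ratios and correlations used exact permutation tests (scipy 1.17.1). The limma test was checked on simulated data. No pair of libraries within a label agreed within sampling noise (chi-square of at least 7.05 per degree of freedom).

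The members and lists were chosen with earlier results of these data known. Named genes were the 10 members, Mettl21e, from each list the members past the test or else the 3 most abundant, and the 5 genes most like Rcan1 and Rcan2. A gene that this rule names is not reported here. Alternatives were other scalings, pseudocounts, filters and spread models, a replicate block, limma voom on the recovered fragments, and leaving out each library. The ratio of Rcan1 to Rcan2, the exon-union lengths and the leave-out counts of the slow fibre list were added after seeing the data. Python 3.11.15, pandas 2.3.3, numpy 2.4.6 and matplotlib 3.10.9 were used.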

Additional observations from a re-analysis of the deposited data

How the results depend on the processing

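Of 148 alternative values of the 10 log2 differences, 138 kept their direction and 0 passed the test (smallest adjusted p 0.174). Rcan1, Nfatc1, Nfatc2, Nfatc4, Ppp3ca and Ppp3cb kept theirs in all, Rcan1 between -0.49 and -0.27 (limma adjusted p from 0.267 to 1). Subtracting library medians reversed Ppp3r1 (0.0015), Nfatc3 (0.0347) and Camk2a (0.041), and quantile normalization reversed Nfatc3 (0.0327) and Camk2a (0.0144). The spans when 1 library was left out were -0.1524 to 0.0141 for Rcan2, -0.0802 to 0.0656 for Nfatc3 and -0.0352 to 0.0365 for Camk2a. Leaving out 1 library gave 0 to 3 called genes over all genes and 0 to 2 among the slow fibre genes called lower. Over all genes, leaving out WT-labelled library 1 gave 1 call, WT-labelled library 3 gave 3 and KO-labelled library 3 gave 1.

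The median shift between scalings was under 0.1. Without the filter or with a mean of at least 5 FPKM, 0 genes passed, as in limma voom. With the replicate number as a block, 0 genes passed (smallest adjusted p 0.494). Deviations of same-numbered libraries from their label means, over all tested genes, correlated at 0.02, -0.04 and 0.02. No pairing by number showed at this scale, which cannot settle what the numbers stand for. The block changed no call. Nfatc2 and Nfatc4 have no value at a mean of at least 5 FPKM.

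The r of Rcan1 with Ppp3ca was 0.0047 over deviations from label means, with Rcan2 -0.0293 after median subtraction and -0.0449 over those deviations, and with Nfatc3 -0.0604 after median subtraction. Without the 2 farthest libraries it was 0.90 with Ppp3r1 and -0.29 with Nfatc3, and that of Rcan2 with Ppp3cb was -0.37. When 1 library was left out, r of Rcan1 ran from -0.20 to 0.87 with Ppp3r1, -0.28 to 0.68 with Rcan2, -0.31 to 0.50 with Nfatc3 and -0.64 to 0.43 with Camk2a, and that of Rcan2 with Ppp3cb from -0.30 to 0.50. The log2 ratio of label means for Rcan1 over Ppp3ca plus Ppp3cb stayed between -0.61 and -0.35.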
